A study of Homo sapiens with 8 samples.

Results

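The core of the RAS, RAF, MEK and ERK signalling cascade was followed through 7 genes: the RAS GTPases NRAS and HRAS, the RAF kinases ARAF and BRAF, the MEK kinases MAP2K1 and MAP2K2, and the ERK kinase MAPK3. They were selected by gene name from a table of 62649 genes, each matched 1 row, and all 7 passed the filter on low values (at least 1 TPM in 2 or more libraries) that left 19122 genes for testing. They are not every human gene of these families, and the others are not analysed here. In this cascade a RAS protein loaded with GTP recruits RAF kinases to the membrane, RAF phosphorylates MEK, and MEK phosphorylates ERK, which then acts on kinases and transcription factors. The pathway is a main driver of pancreatic ductal cancer. Its activity is set mainly by GTP loading and phosphorylation, which RNA levels do not measure.

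Cells of 2 established human pancreatic cancer lines, AsPC-1 and PANC-1, both labelled wild type, were grown as spheroids in a medium with methylcellulose for 3 days and then treated for 24 h. Each line received the vehicle, 10 µM roseoflavin, 1 nM trametinib or both compounds, with 1 library per line and treatment, so that 8 libraries were made and no group had replicates. Roseoflavin is an antibiotic analogue of riboflavin. Trametinib inhibits MEK1 and MEK2, the kinases encoded by MAP2K1 and MAP2K2, so 2 of the genes described here encode its targets. The design allowed 3 questions to be put to the 7 genes: their levels in each line, whether either compound moved them, and whether the lines or compounds differed in that effect. Where the 4 libraries of a line are compared as a set, they are different treatments of 1 line, and p-values measure the spread among these libraries only.

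Levels are given in TPM, a measure of transcript abundance that corrects for gene length and sums to 1000000 in each library. The depth of these libraries is unknown, because TPM does not retain it. The 37 genes of the mitochondrial genome took up 41.2% to 44.1% of an AsPC-1 library and 22.8% to 25.6% of a PANC-1 library, a share that moves the TPM of every other gene when the lines are compared. All 6 epithelial markers examined were at 1 TPM or more in every library, and summed to 7398 to 8517 TPM in AsPC-1 and 2712 to 3033 TPM in PANC-1. The 5 mesenchymal markers summed to 682 to 840 TPM and 3155 to 3416 TPM, almost all of it VIM. Within that list CDH2 was listed at 0 in AsPC-1 and at 5.48 to 5.57 TPM in PANC-1, while SNAI2 was at 13.6 to 15.7 TPM in AsPC-1 and at 0.252 to 0.406 TPM in PANC-1. The part of these markers in the differences between the lines was not tested, and in bulk RNA fewer cells of a type and less RNA per cell cannot be told apart. The 4 leukocyte markers summed to 3.31 to 4.18 TPM in AsPC-1 and 0.473 to 1.62 TPM in PANC-1, nearly all of it CD14, with CD3E listed at 0 in all 8 libraries. The 3 endothelial markers summed to 0.096 TPM or less. Of 5 fibroblast markers, COL1A1 was at 98.9 to 107 TPM in PANC-1 and LUM at 103 to 146 TPM in AsPC-1, while PDGFRA was listed at 0 in AsPC-1 and DCN in PANC-1.

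The 7 genes lie on 7 chromosomes (GRCh38, GENCODE release 29). NRAS is at chromosome 1, 114704469 to 114716894, minus strand, and HRAS at chromosome 11, 532242 to 537287, minus strand. ARAF is at chromosome X, 47561100 to 47571920, plus strand, and BRAF at chromosome 7, 140719327 to 140924928, minus strand. MAP2K1 is at chromosome 15, 66386817 to 66492312, plus strand, MAP2K2 at chromosome 19, 4090321 to 4124129, minus strand, and MAPK3 at chromosome 16, 30114105 to 30123506, minus strand. All are annotated as protein coding.

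Because the largest difference among the 7 genes separates the MEK pair, the bases just before their most upstream annotated starts are shown (RefSeq promoter table, GRCh38.p14). The MAP2K1 stretch is chr15:66386667-66386816 on the plus strand and the MAP2K2 stretch chr19:4124130-4124279 on the minus strand, 150 bases each, written 5′ to 3′ along the gene. Capitals mark matches, on either strand, to the GC box, with the letters GGGCGG, to the half-site of a cAMP response element, with the letters TGACG, or to the CCAAT box, named by its letters.
MAP2K1: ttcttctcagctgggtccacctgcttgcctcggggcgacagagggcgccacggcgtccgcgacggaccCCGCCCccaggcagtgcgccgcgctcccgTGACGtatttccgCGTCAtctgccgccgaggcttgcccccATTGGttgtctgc
MAP2K2: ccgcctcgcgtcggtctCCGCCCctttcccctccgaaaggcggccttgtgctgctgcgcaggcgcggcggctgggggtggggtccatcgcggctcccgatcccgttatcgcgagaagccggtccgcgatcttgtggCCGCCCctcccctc
The MAP2K1 stretch held 4 matches, of a GC box, a CCAAT box and 2 half-sites on opposite strands, and the MAP2K2 stretch held 2 GC boxes. In the full windows of 300 bases, from 250 before to 50 after the RefSeq start, GC boxes were found in 5 of the 7 genes and in 44.6% of 27305 promoters. CCAAT boxes were found in 4 of the 7 and 35.7% of all, and half-sites in 4 of the 7 and 25.0% of all. In these longer windows MAP2K1 held 3 GC boxes, 1 CCAAT box and 2 half-sites, and MAP2K2 held 2, 0 and 1. A half-site was thus found in both MEK genes, and the contrast between the printed stretches depends on where they were cut. Motifs of factors that ERK acts through were also searched on both strands. The ETS core CCGGAAG was found in NRAS and HRAS and in 10.7% of promoters, and the AP-1 site TGANTCA in none of the 7 and in 7.76%. None of the motifs contains another, and a match describes letters only.

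Paired genes of a family resemble each other, which matters for how reads are assigned. Over aligned bases the coding sequences were 73.6% identical between NRAS and HRAS, 68.3% between BRAF and ARAF and 75.4% between MAP2K1 and MAP2K2. Among pseudogenes named after the 7 genes, ARAFP1, ARAFP2, ARAFP3 and BRAFP1 were listed at 0 in all 8 libraries, and MAP2K1P1 reached 0.090 TPM in 1. Exons of MAP2K1 overlap those of SNAPC5 (216 bases) and of an antisense gene (432 of 3759 exonic bases), exons of BRAF overlap those of NDUFB2 (1239 of 23432 bases), and exons of ARAF overlap those of SYN1 (23 bases), all on the opposite strand. SNAPC5 was at 10.0 to 11.7 TPM in AsPC-1 and 23.8 to 26.3 TPM in PANC-1, and the antisense gene was at 1.78 TPM or less. NDUFB2 was at 23.9 to 29.3 TPM over the 8 libraries, far above BRAF. The library kit marks strand, but whether the counting used it is not stated, so the part of these overlaps in the values of MAP2K1 and BRAF was not tested.

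The RAS GTPases, which start the cascade, were both higher in PANC-1. NRAS was at 31.2 TPM with vehicle, 34.7 with roseoflavin, 40.2 with trametinib and 38.1 with both in AsPC-1. In PANC-1 it was at 71.2, 70.1, 70.3 and 71.7 TPM in the same order. Every PANC-1 library was thus above every AsPC-1 library, and the spread was wider in AsPC-1 (36.0 ± 3.97 TPM, SD, n = 4) than in PANC-1 (70.8 ± 0.747 TPM, SD, n = 4). HRAS was at 19.8 TPM with vehicle, 19.1 with roseoflavin, 15.2 with trametinib and 18.1 with both in AsPC-1. It was at 50.8, 44.6, 53.0 and 44.3 TPM in PANC-1, again without overlap between the lines.

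The RAF kinases also stood higher in PANC-1. ARAF was at 23.3 TPM with vehicle, 23.4 with roseoflavin, 22.1 with trametinib and 22.5 with both in AsPC-1, and at 58.8, 56.3, 56.5 and 57.9 TPM in PANC-1. Within a line these values lay close together, with a coefficient of variation of 2.83% in AsPC-1 and 2.12% in PANC-1. BRAF had the lowest level of the 7 genes in both lines. It was at 2.63, 2.63, 2.88 and 2.83 TPM in AsPC-1 and at 5.13, 5.78, 5.28 and 5.76 TPM in PANC-1, in the same order of treatments.

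The MEK kinases differed between the lines in opposite directions. MAP2K1 was at 11.6 TPM with vehicle, 11.5 with roseoflavin, 11.5 with trametinib and 11.7 with both in AsPC-1, a coefficient of variation of 0.867%. In PANC-1 it was at 50.9, 48.9, 45.5 and 43.9 TPM. MAP2K2, in contrast, was at 37.6, 37.0, 36.1 and 39.8 TPM in AsPC-1 and at 28.5, 29.1, 28.2 and 30.8 TPM in PANC-1, so that every PANC-1 library was below every AsPC-1 library.

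MAPK3, which encodes ERK1, was the member whose levels overlapped between the lines. It was at 41.3 TPM with vehicle, 41.8 with roseoflavin, 47.0 with trametinib and 45.1 with both in AsPC-1. In PANC-1 it was at 38.5, 42.2, 37.5 and 44.3 TPM. The values of the 4 libraries did not overlap between lines for 6 of the 7 genes, against 79.2% of the genes tested.

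**Figure D1:**
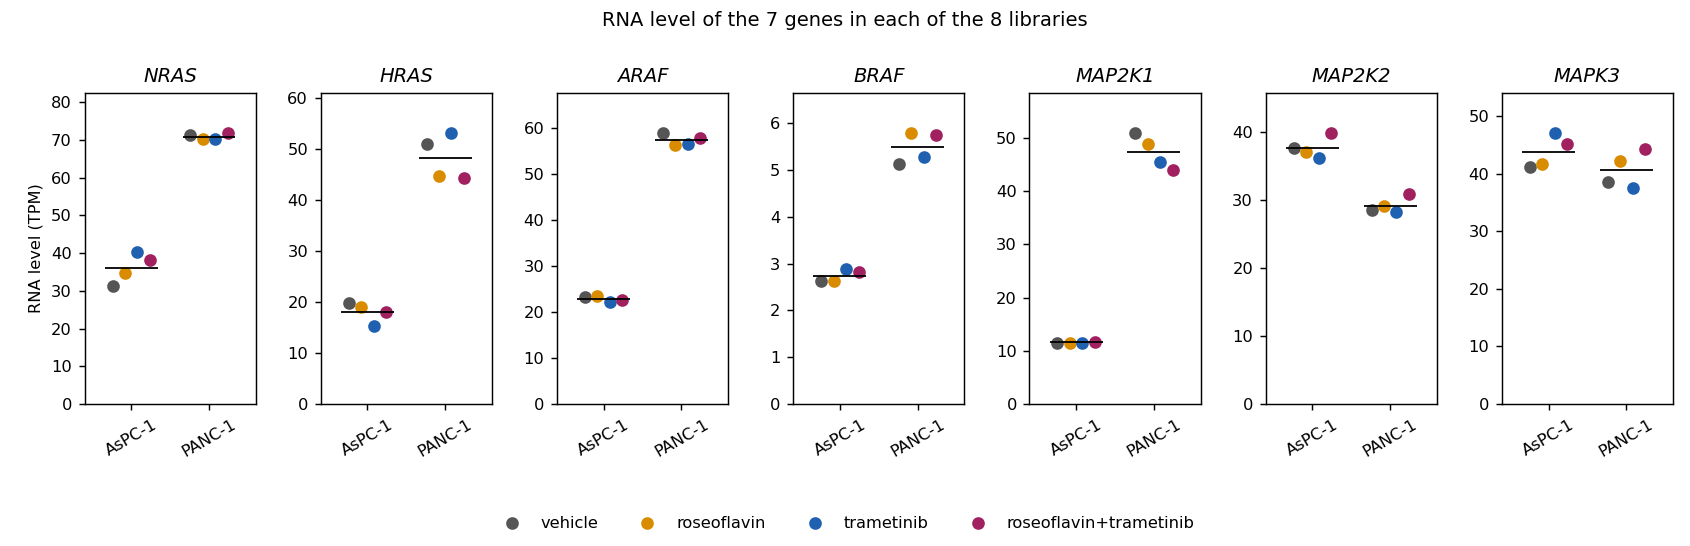
RNA level in TPM (y axis, a scale of its own for each gene, starting at 0) of the 7 genes in the 4 AsPC-1 and 4 PANC-1 libraries; each point is 1 library, coloured by treatment, and each bar is the mean of 4 libraries. The lines separate for every gene but MAPK3, and MAP2K2 is the gene with PANC-1 below AsPC-1 without overlap.

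Ordered by mean TPM, the genes ran MAPK3, MAP2K2, NRAS, ARAF, HRAS, MAP2K1 and BRAF in AsPC-1. Neighbours in this order did not overlap over the 4 libraries, apart from MAP2K2 and NRAS. In PANC-1 the order was NRAS, ARAF, HRAS, MAP2K1, MAPK3, MAP2K2 and BRAF. There HRAS overlapped MAP2K1, which overlapped MAPK3, and the other neighbours did not overlap. MAP2K2 thus ranked 2 in AsPC-1 and 6 in PANC-1. BRAF stood at the 33.7th percentile of the mean levels of tested genes in AsPC-1 and the 37.0th in PANC-1, while the other 6 lay between the 61.4th and the 89.2nd.

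The difference between the lines was tested with limma on log2(TPM + 1), with both compounds as additive terms and p-values adjusted by the Benjamini-Hochberg method over all 19122 genes. Of the 7 genes 5 were higher and 1 was lower in PANC-1 at an adjusted p of 0.05. The background is high: 83.8% of all genes passed, 62.3% higher and 21.5% lower in PANC-1, and the median difference of all genes was 0.55. MAP2K1 was higher by 1.94 (SE 0.0479, adjusted p 9.26e-08), HRAS by 1.37 (SE 0.0941, adjusted p 1.15e-05) and ARAF by 1.29 (SE 0.0358, adjusted p 1.52e-07). NRAS was higher by 0.96 (SE 0.0648, adjusted p 1.03e-05) and BRAF by 0.79 (SE 0.0557, adjusted p 1.28e-05). BRAF is low enough for the added 1 to shrink its difference, which was 0.97 with a pseudocount of 0.1. MAP2K2 was lower by a difference of -0.36 (SE 0.0404, adjusted p 0.000158), and MAPK3 had a difference of -0.11 that did not pass (SE 0.0594, adjusted p 0.134). Each of the 6 that passed had its direction in 4 of 4 comparisons at matched treatment.

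The difference between the lines was also computed under 2 other scalings. After genes of the mitochondrial genome were removed and TPM rescaled, the median difference of all genes moved by -0.31 to 0.25, and under quantile normalization by -0.51 to 0.04. The split of calls went from 11917 higher and 4110 lower to 9488 and 5891 and to 7963 and 7177, in the same order. All 7 genes kept their direction, and MAPK3 passed as lower in PANC-1 under both scalings, at -0.49 (limma adjusted p 0.000190) and -0.57 (limma adjusted p 0.000112). MAP2K2 moved to -0.74 and -0.85, NRAS to 0.58 and 0.50, and BRAF to 0.52 and 0.22. ARAF moved to 0.92 and 0.81, HRAS to 1.00 and 0.87, and MAP2K1 to 1.59 and 1.43. Relative to the median of all genes in the same scaling, the differences were steadier, from 1.34 to 1.39 for MAP2K1, from 0.18 to 0.27 for BRAF, from -0.99 to -0.89 for MAP2K2 and from -0.74 to -0.61 for MAPK3.

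**Figure D2:**
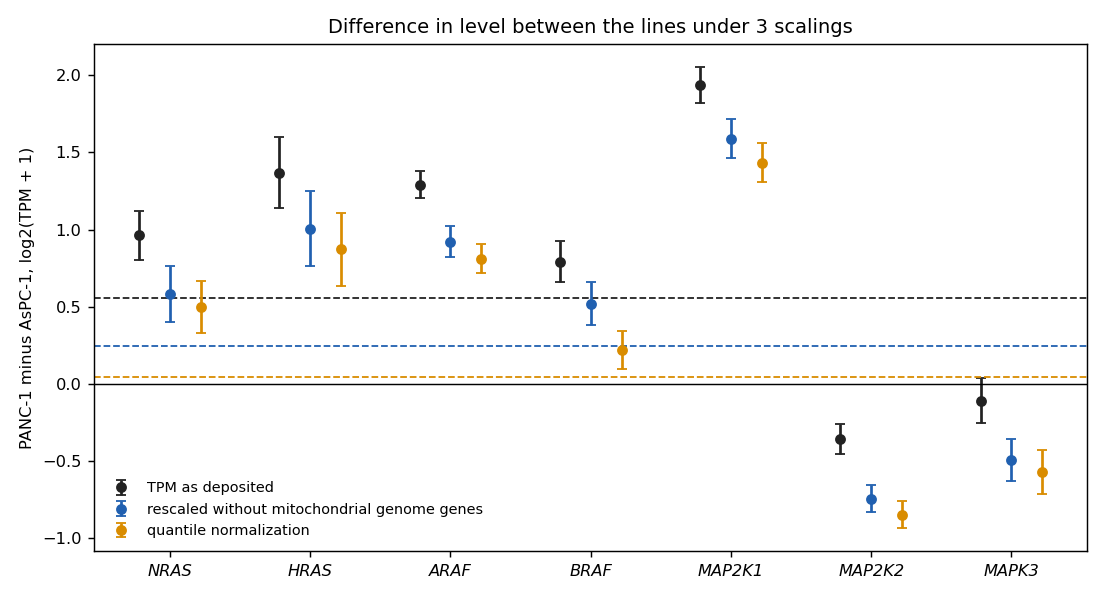
Difference of each gene between the lines (y axis, PANC-1 minus AsPC-1 on the log2(TPM + 1) scale) with its 95% limma interval, for TPM as deposited and after both rescalings; dashed lines are the median of all genes in the scaling of the same colour. MAP2K1 lies highest and MAP2K2 lowest in all 3 scalings, and MAPK3 lies below 0 with an interval that crosses 0 only for TPM as deposited.

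Ratios of paired genes within 1 library do not depend on its scale. MAP2K2 was 3.13 to 3.39 times as high as MAP2K1 in the 4 AsPC-1 libraries, while MAP2K1 was 1.42 to 1.79 times as high as MAP2K2 in the 4 PANC-1 libraries. As a share of the TPM of both genes, MAP2K1 made up 22.8% to 24.2% in AsPC-1 and 58.7% to 64.1% in PANC-1. Their sum was 47.7 to 51.5 TPM in AsPC-1 and 73.6 to 79.3 TPM in PANC-1. The log2 ratio of MAP2K1 to MAP2K2 was -1.70 ± 0.0480 (SD, n = 4) in AsPC-1 and 0.70 ± 0.139 (SD, n = 4) in PANC-1. The difference of 2.39, a 5.26-fold change of the ratio, was larger than the spread among libraries (exact two-sided permutation test over 4 against 4 libraries, p 0.0286, the smallest this design can give, adjusted over 3 ratios to 0.0429). MAP2K1 and MAP2K2 each separated the lines without overlap, in opposite directions. That fixed this p in advance, so the test adds no support beyond the levels of the 2 genes.

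The RAF pair kept its order, with ARAF above BRAF in all 8 libraries. ARAF was 7.68 to 8.89 times as high as BRAF in AsPC-1 and 9.73 to 11.5 times in PANC-1, without overlap. The log2 ratio of BRAF to ARAF differed by -0.33 between the lines (exact permutation test, p 0.0286, adjusted to 0.0429). This p is the same smallest value as for the MEK pair, though the difference is far smaller. Ratios of other gene pairs were not tested, so no background share stands beside these calls. Of single genes, 79.2% separated the lines without overlap. NRAS was 1.57 to 2.64 times as high as HRAS in AsPC-1 and 1.33 to 1.62 times in PANC-1, ranges that overlap. Its log2 ratio to HRAS differed by -0.44, which did not pass (exact permutation test, p 0.0857, adjusted to 0.0857). The highest ratio, 2.64, was that of the AsPC-1 trametinib library, and the AsPC-1 vehicle library had the lowest of that line, 1.57.

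**Figure D3:**
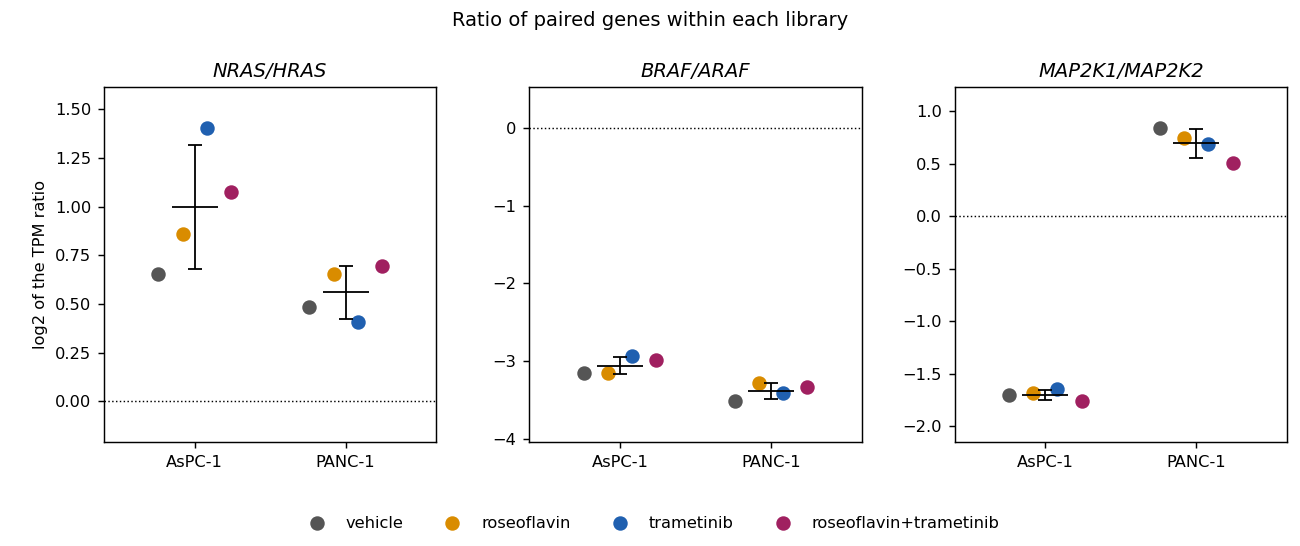
Log2 ratio of TPM of paired genes (y axis, a scale of its own for each pair) in each library, coloured by treatment, with the mean and SD of the 4 libraries of a line; the dotted line marks equal levels. The MAP2K1 to MAP2K2 ratio lies below equality in all 4 AsPC-1 libraries and above it in all 4 PANC-1 libraries.

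Other genes of the pathway were counted from 8 lists by role, with 103 genes, of which 95 were tested. Between the lines 63 of the 95 were higher and 24 lower in PANC-1, with a median difference of 0.56 against 0.55 for all genes. The shares over all genes tested were 62.3% higher and 21.5% lower, and the counts by role below are to be read against them. Among adaptors and exchange factors that load RAS, 9 of 10 were higher and 1 was lower. SHC1, an adaptor between receptors and RAS, was at 92.1 to 103 TPM in AsPC-1 and 499.6 to 527 TPM in PANC-1, a difference of 2.37 (limma, SE 0.0339, adjusted p 9.50e-09). Of the GTPase activating proteins and other brakes on RAS, 9 of 11 were higher and 1 was lower. RAS-related GTPases were split, with 3 of 9 higher and 3 lower, and genes of RAS processing and trafficking had 4 of 8 higher and 3 lower. Scaffolds and modulators had 13 of 20 higher and 4 lower, kinases of the parallel MAPK branches 10 of 15 and 5, and kinases and factors acted on by ERK 7 of 9 and 2. Genes transcribed in response to ERK had 8 of 13 higher and 5 lower. Named by smallest adjusted p among these were 2 phosphatases that remove the activating phosphates from MAP kinases, both lower in PANC-1. DUSP4 was at 43.6 to 49.2 TPM in AsPC-1 and at most 0.143 TPM in PANC-1, and DUSP6 at 136 to 193 and 12.5 to 18.6 TPM (limma adjusted p 3.02e-09 and 3.58e-09). DUSP5, another phosphatase of this kind, had levels in the opposite order, at 0.603 to 1.14 TPM in AsPC-1 and 16.9 to 23.4 TPM in PANC-1.

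Neither compound moved any of the 7 genes past the threshold over both lines. With trametinib, in the limma fit with the line and roseoflavin as additive terms, 0 of 7 passed, with 0 at an unadjusted p under 0.05. In the background, 0 of 19122 genes (0%) passed, while 938 were under 0.05 before adjustment. The estimates ran from -0.10 for HRAS to 0.13 for NRAS, and their 95% intervals all lay between -0.32 and 0.28 on the log2(TPM + 1) scale. The median of their absolute values was 0.07, against 0.06 for all genes tested. The targets of the drug had estimates of -0.07 for MAP2K1 (SE 0.0479) and 0.03 for MAP2K2 (SE 0.0404). With roseoflavin 0 of 7 passed, also with 0 at an unadjusted p under 0.05, against 0 of all genes (0%) and 1358 unadjusted. Those estimates ran from -0.06 for HRAS to 0.08 for MAPK3, with intervals between -0.29 and 0.22.

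The lines were then kept apart, in a limma fit with an effect of each compound in each line. No gene of the 19122 passed in any of these 4 comparisons (0%), and 2691 genes had an unadjusted p under 0.05 for trametinib in AsPC-1, 919 for trametinib in PANC-1, 2163 for roseoflavin in AsPC-1 and 2074 for roseoflavin in PANC-1. Of the 7 genes 2, 1, 0 and 1 had one, in that order.

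With trametinib in AsPC-1, the treated libraries lay outside the range of the untreated ones for 5 of the 7 genes, against 37.3% of all genes. NRAS was at 40.2 and 38.1 TPM with trametinib and 31.2 and 34.7 TPM without, an estimate of 0.25 (SE 0.0683, adjusted p 0.315). MAPK3 was at 47.0 and 45.1 TPM with and 41.3 and 41.8 TPM without trametinib (0.15, SE 0.0493, adjusted p 0.342). HRAS was at 15.2 and 18.1 TPM with and 19.8 and 19.1 TPM without (-0.22, SE 0.0847, adjusted p 0.380). BRAF was above and ARAF below the range of the untreated libraries. None of these passed, and the NRAS estimate ranged from 0.13 to 0.36 and that of HRAS from -0.36 to -0.07 when single libraries were left out. Of the 5 fibroblast markers only LUM was above 1 TPM in AsPC-1, at 145 and 146 TPM with and 103 and 111 TPM without trametinib, and 4 of 6 epithelial markers (CDH1, EPCAM, KRT8 and KRT19) and CD14 also lay above the untreated range. VIM and ZEB1, of the 5 mesenchymal markers, lay below it. The part of these markers in the values of the 7 genes was not tested.

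In PANC-1 the picture with trametinib differed by gene. Only MAP2K1 lay outside the untreated range, 1 of 7 against 27.8% of all genes, at 45.5 and 43.9 TPM with trametinib and 50.9 and 48.9 TPM without (-0.16, SE 0.0404, unadjusted p 0.0193, limma adjusted p 1). NRAS in PANC-1 had an estimate of 0.01 (SE 0.0683). The difference between the lines in the trametinib effect passed for 0 of 7 genes and for 0 of all genes (0%), with 1854 at an unadjusted p under 0.05. For MAP2K1 it was -0.17 (SE 0.0571, limma adjusted p 0.514) and for NRAS -0.24 (SE 0.0966, limma adjusted p 0.538). The NRAS value ran from -0.35 to -0.13 with single libraries left out. Among the markers that reached 1 TPM in PANC-1, 2 of 6 epithelial markers, CDH1 and KRT18, and CD14 lay above the untreated range with trametinib. None lay below it and the other markers overlapped it. The part of these markers was not tested.

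With roseoflavin in AsPC-1, 0 of 7 genes lay outside the untreated range, against 32.3% of all genes, and estimates ran from -0.02 for MAPK3 to 0.09 for HRAS. Both join matched changes of opposite sign. These were 0.02 without and -0.06 with trametinib for MAPK3, and -0.05 and 0.24 for HRAS. In PANC-1, 4 of 7 genes lay outside the untreated range, against 45.5%. MAPK3 was at 42.2 and 44.3 TPM with roseoflavin and 38.5 and 37.5 TPM without (0.18, SE 0.0493, limma adjusted p 0.406). HRAS was at 44.6 and 44.3 TPM with and 50.8 and 53.0 TPM without (-0.22, SE 0.0847, limma adjusted p 0.475). BRAF and MAP2K2 lay above the untreated range there. The difference between the lines in the roseoflavin effect passed for 0 of 7 genes and 0 of all genes (0%), with 2227 unadjusted. It was 0.20 for MAPK3 (SE 0.0697, limma adjusted p 0.424) and -0.31 for HRAS (SE 0.120, limma adjusted p 0.440), and the HRAS value ran from -0.46 to -0.17 with single libraries left out. Among markers with roseoflavin in PANC-1, VIM and ZEB1, of 3 mesenchymal markers that reached 1 TPM, lay above the untreated range. KRT8 and KRT19, of 6 epithelial markers, and COL1A1, the only fibroblast marker that reached 1 TPM, lay below it. The other epithelial markers overlapped it. Of these, CDH1 was higher and KRT18 lower with roseoflavin at each matched treatment, while EPCAM and KRT7 each went both ways. The part of these markers was not tested.

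**Figure D4:**
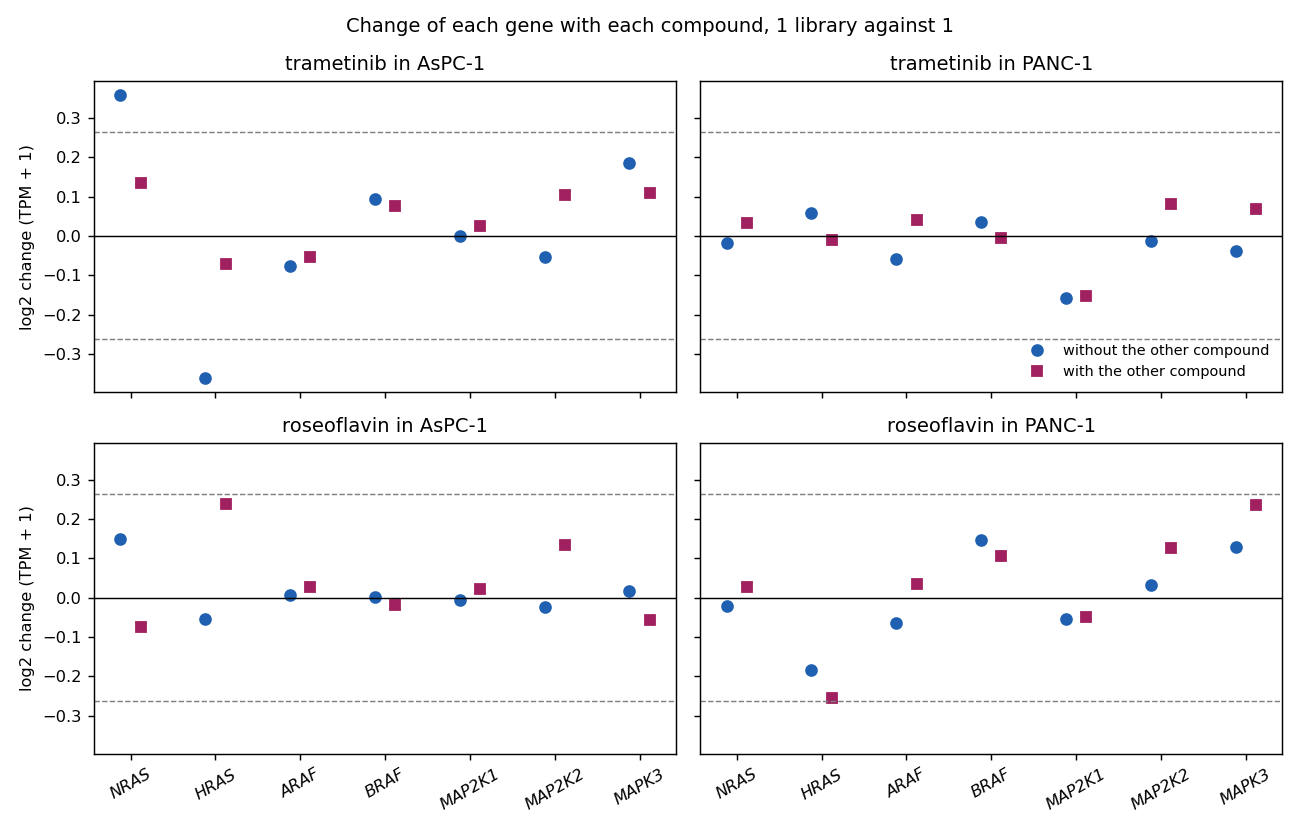
Change of each gene on the log2(TPM + 1) scale (y axis) with trametinib (top) and roseoflavin (bottom) in each line; circles are changes without and squares changes with the other compound, each 1 library against 1, and dashed lines mark 1.2-fold. Beyond the dashed lines are NRAS and HRAS with trametinib alone in AsPC-1.

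Single treatments were also set against the vehicle of their line, 1 library against 1 with no test, with a change of 1.2-fold as the mark. In AsPC-1, trametinib alone took 2 of 7 genes past it, NRAS (1.28-fold) and HRAS (0.778-fold), against 21.6% of all genes. The combination took 1 past it, NRAS at 1.22-fold, against 20.9%, and roseoflavin alone 0, against 19.6%. In PANC-1 none of the 7 passed it with roseoflavin (16.5% of all genes), trametinib (15.5%) or both (19.6%). These comparisons share the vehicle library of each line. The shares of all genes include many low ones, and all of the 7 but BRAF had a mean above 10 TPM. Of the 9368 genes that reached this mean, a smaller share passed 1.2-fold in every comparison. In PANC-1 these were 648 genes with roseoflavin, 463 with trametinib and 887 with both. In AsPC-1 they were 1005, 1410 and 1224, in the same order. The 0 of 7 in PANC-1 is to be read against these lower shares. Departure from additivity was tested as the interaction of the compounds in limma. No gene passed, 0 of 7 and 0 of all genes (0%), with 536 unadjusted, and the estimates of the 7 ran from -0.09 for NRAS to 0.13 for MAP2K2 (SE 0.0740).

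Genes downstream of the cascade were read in the same libraries. Of 13 tested genes transcribed in response to ERK, 0 passed with trametinib in either line. The estimate was negative for 11 in AsPC-1 (median -0.16, against 0.02 for all genes) and for 12 in PANC-1 (median -0.10, against 0.01). PHLDA1, a gene induced by ERK, was at 93.5 and 90.8 TPM with and 122 and 123 TPM without trametinib in AsPC-1 (-0.41, SE 0.0351, limma adjusted p 0.271). It was at 241 and 234 against 249 and 243 TPM in PANC-1, and the difference between lines did not pass (0.36, limma adjusted p 0.493). DUSP6 was at 14.0 and 12.5 TPM with and 18.6 and 17.5 TPM without trametinib in PANC-1 (-0.42, SE 0.0413, limma adjusted p 0.474). With roseoflavin, none of the 95 tested genes of the 8 lists passed in either line, and 19 in AsPC-1 and 11 in PANC-1 were under 0.05 before adjustment, against 2163 and 2074 of the 19122 genes. Lowest in adjusted p was CCND1, a cyclin of the G1 phase, in AsPC-1 (0.24, limma adjusted p 0.355) and MKNK2, a kinase activated by ERK, in PANC-1. MKNK2 was at 140 and 149 TPM with and 114 and 115 TPM without roseoflavin there (0.34, limma adjusted p 0.252), and the difference between lines was 0.44 (limma adjusted p 0.336). Over both lines the smallest p among these genes was that of EGR1 for roseoflavin (-0.26, limma adjusted p 0.615) and DUSP6 for trametinib (-0.38, limma adjusted p 0.564), and for the interaction it was that of DUSP5 (0.32, limma adjusted p 1.00).

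The gene most like each of the 7 was looked for among the 9368 genes whose mean reached 10 TPM, by Pearson correlation of log2(TPM + 1) over 8 libraries after the mean of each line was subtracted. The points share their libraries, and the values are given as a description. For MAPK3 it was AVL9 (r 0.994), for NRAS APOBEC1 (0.992), for BRAF YME1L1 (0.984), for MAP2K2 PFKFB2 (0.983) and for HRAS WDR35 (0.981). For MAP2K1 it was DCTN6 (0.953) and for ARAF an unnamed gene, ENSG00000216775 (0.948). APOBEC1 was listed at 0 in all 4 PANC-1 libraries, so its likeness to NRAS rests on AsPC-1, where its level was 23.3 TPM in the vehicle library and 32.1 TPM in the trametinib library.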

How the data were processed

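RNA sequencing libraries of AsPC-1 and PANC-1 spheroids were analysed, 1 per line and treatment. The authors deposited 1 table of TPM values per gene, with each column named for a line and a treatment per the file headers. The submitters' processing notes name STAR 2.7.3a, HTSeq 2.0.2 and hg38. The annotation, the strand setting and the lengths behind TPM are not given in the sources used here, and 985926 blank rows were dropped. Depth is unknown, so no counting interval was computed.

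The labels gave each library its group. The scale used was log2(TPM + 1), on which changes of low genes come out too small, for genes with at least 1 TPM in 2 libraries. The 10 comparisons were made with limma 3.58.1 (R 4.3.3, eBayes with a trend). Effects over both lines and the difference between lines used additive terms (4 residual degrees of freedom), and effects within a line used an effect of each compound per line (2). Paired genes were compared by exact permutation in scipy 1.17.1. Alternatives were quantile normalization, rescaling without the mitochondrial genome, no filter, a mean of at least 10 TPM, a pseudocount of 0.1 and leaving out each library.

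Named are the 7 genes, their pseudogenes, up to 3 pathway genes with the smallest adjusted p per comparison (1 where none passed) and the gene most like each of the 7. The genes, lists and tests were chosen with earlier results of these data known. The models were checked on simulated data. There the fits within a line and of differences between lines in an effect missed the smallest changes simulated, and the interaction fit missed most of them. The fits of a compound over both lines and of the level between lines missed part of them. All of these fits also missed part of the next larger changes, most often in the differences between lines in an effect. Smaller changes were not simulated. The simulated spread came from the fit with an effect of each compound per line, so the fits over both lines met no difference between lines in effect. A count of 0 in any of these fits does not show that such changes, or smaller ones, are absent. Positions are from GENCODE release 29 by Ensembl identifier, and promoters, found for all 7 genes, from RefSeq. 1 further result is not reported here.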

Additional observations from a re-analysis of the deposited data

How the results depend on the processing

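No analysis of paired replicates was possible because each group is 1 library and the labels give no replicate numbers. Treatments were matched across the lines by terms of the models. The exact test of ratios did not use that match, so its calls rest on libraries taken as unmatched. The direction of the difference between lines held for all 7 genes under quantile normalization, rescaling, no filter, the pseudocount and each left-out library, and under the filter on a mean of at least 10 TPM for the 6 genes it keeps (BRAF falls below it). The 6 calls held wherever the gene was tested, so 5 of them under that filter, and MAPK3 turned into a call under both scalings (-0.57 and -0.49). Counts were lower with the filter on a mean of 10 TPM, which tests 9368 genes. There 8388 genes passed between the lines, and in AsPC-1 roseoflavin, trametinib and both took 1005, 1410 and 1224 genes past 1.2-fold. For PANC-1 these counts were 648, 463 and 887. The counts of 0 for the compounds, their differences between lines and the interaction were 0 under each alternative. With libraries left out, 15618 to 15789 genes passed between the lines, and the log2 ratio differed by 2.35 to 2.46 for MAP2K1 to MAP2K2 and by -0.36 to -0.28 for BRAF to ARAF. With 3 libraries against 4 the exact test cannot pass 0.05 (smallest p 0.0571), so these carry no call. Among the estimates over both lines, some near 0 changed sign. These were ARAF with roseoflavin (-0.0053 when rescaled, -0.015 to 0.024 with libraries left out) and MAP2K1 with roseoflavin (0.0021 under quantile normalization, -0.054 to 0.0066). With libraries left out, HRAS with trametinib (-0.17 to 0.0091) and roseoflavin (-0.17 to 0.014) and NRAS with roseoflavin (-0.042 to 0.074) also did. Most estimates within a line were not followed in this way. In AsPC-1 those of MAPK3 and HRAS with roseoflavin rest on matched changes of opposite sign. The cause was not tested.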
